A study of Mus musculus with 6 samples.

Results

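Pericytes and vascular smooth muscle cells are the mural cells of blood vessels. The 9 genes described here, Ndufa4l2, Smtn, Myh11, Rgs5, Pdgfrb, Cspg4, Notch3, Mcam and Abcc9, are used as markers of these cells, and they were taken from the 55536 genes of the count matrix by the Ensembl identifiers that carry these symbols in GENCODE M21. All 9 had a row, and all 9 passed the filter on low counts that left 15712 genes to test. RNA sequencing was done on perichondrium, the fibrous layer around cartilage, taken from limb bones at postnatal day 4. Libraries mut-596, mut-597 and mut-795 came from Fbn1Scx-/- mice, in which Fbn1 was deleted with the Scx-Cre recombinase, and libraries WT-596, WT-597, WT-795 came from wild-type mice. Values per library below keep that order within each genotype. The title of mut-596 carries ScxCRE and those of mut-597 and mut-795 carry Koscx, and the titles do not say what sets them apart. Fbn1 encodes fibrillin-1, the main protein of extracellular microfibrils. The scleraxis gene that drives this Cre is known from tendon and ligament cells, and it is not a mural cell marker. The RNA came from whole tissue, so whether Fbn1 was deleted in the mural cells themselves was not measured. The labels give no strain and no sex, and whether the libraries are separate animals is not stated, so p-values reflect the spread among libraries, which may be technical.

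Pericytes wrap capillaries, and smooth muscle cells wrap larger vessels and contract. Endothelial cells recruit both by secreting PDGF-B, which binds the receptor encoded by Pdgfrb, and they hold them in a mature state through the Notch ligand JAG1, which acts on the receptor encoded by Notch3. Smooth muscle cells are told from pericytes by contractile proteins such as the heavy chain encoded by Myh11, and most of the 9 genes are also used at some level by other cells, Pdgfrb and Cspg4 by fibroblasts and Mcam by endothelium. In whole tissue, fewer cells of a type and less RNA per cell cannot be told apart.

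Total counts per library lay between 7209217 and 10316017. Fbn1, the targeted gene, had 76, 45 and 69 counts in the 3 knockouts, against 1255, 898 and 458 counts in the 3 wild types, with a log2 fold change of -3.48 (SE 0.29) and an edgeR adjusted p of 1.03e-04. It was the single gene past the threshold, which is 0.00636% of all genes tested. The libraries differed in sex, and the fold changes followed base composition. The part of either in the values that follow was not tested. The libraries mut-596 and mut-597 had 6221 and 4024 counts of Xist, the RNA that coats an inactive X chromosome, and mut-795 and the wild types had at most 4, so mut-795 is the only knockout library of the same sex as the wild types. The log2 fold change also ran against transcript GC content across 15701 genes (Spearman rho -0.628), and genes are not independent of each other.

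None of the 9 genes passed the edgeR test over all genes. At an unadjusted p under 0.05 there were 2, Ndufa4l2 and Smtn, both lower in knockout, where 7.12% of all genes tested met that mark on the lower side and 3.37% on the higher side. DESeq2 called 0 of the 5 members to which it gave an adjusted p (0.438% of all genes with one) and gave none to Ndufa4l2, Myh11, Notch3 and Abcc9, and limma-voom called 0. Of the 9, 6 had a log2 fold change below 0, beside 49.1% of all genes tested, and their median was -0.09, beside 0.01 over all genes. The groups did not overlap for 1 of the 9, Cspg4, lower in knockout, as for 6.22% of all genes tested. With the GC correction, which removes from each library its trend of level on GC content, the median of the 9 was 0.12. Ndufa4l2 and Smtn were low in all knockouts and in 1 wild type, and the other 6 overlapped with log2 fold changes from -0.11 to 0.33. The levels in every library are plotted by gene.

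**Figure D1:**
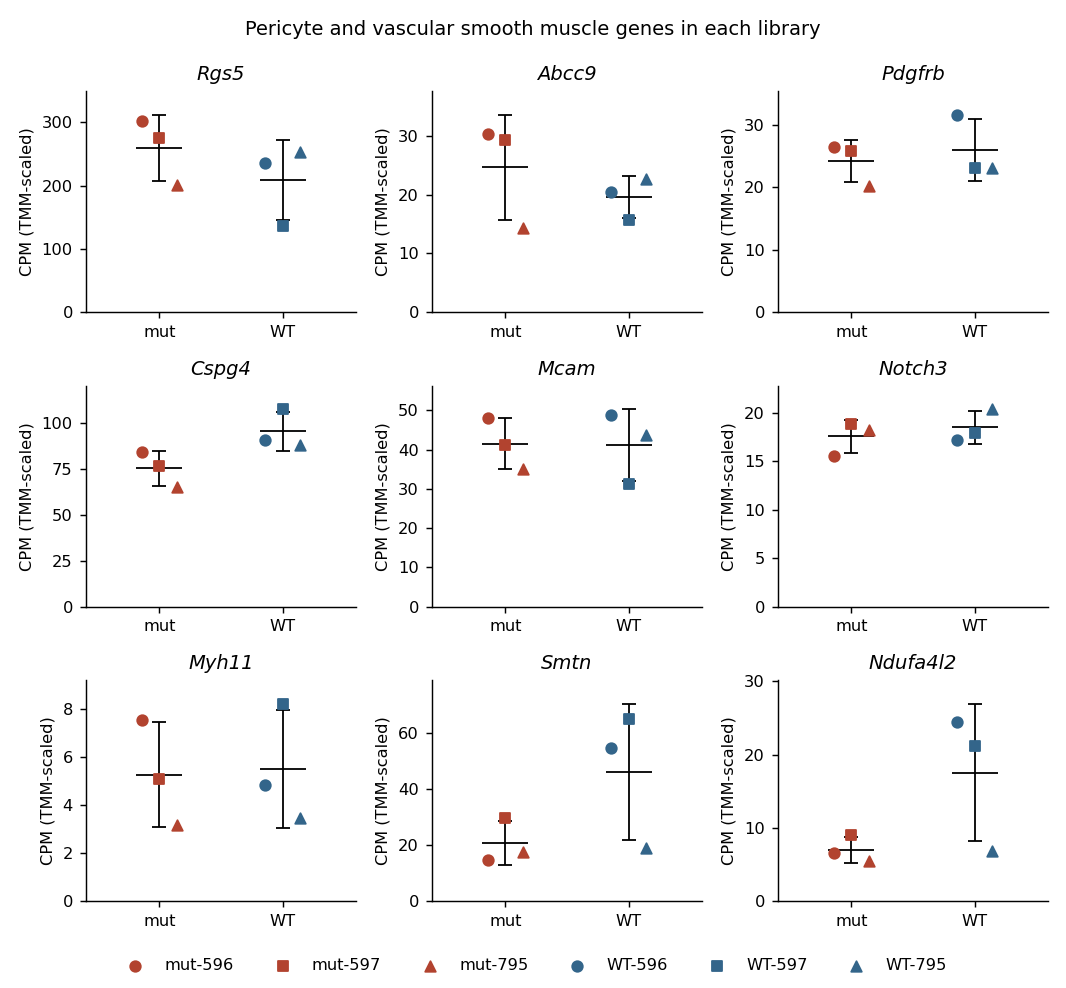
Level of each of the 9 genes in CPM (counts relative to the library total, scaled by TMM), with each library as a point, the group mean as a horizontal line and the SD (n = 3) as an error bar. Ndufa4l2 and Smtn stood at 24.5 and 54.6 CPM in WT-596 but at 6.93 and 18.8 CPM in WT-795, inside the knockout range.

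Levels of different genes were compared per length, as CPM per kilobase of exons. Rgs5 stood far above the rest at 57.1 ± 11.5 CPM per kilobase in knockout and 45.8 ± 13.9 in wild type (SD, n = 3), above 93.8% of tested genes in knockout and 92.2% in wild type. Myh11 stood last at 0.694 ± 0.286 CPM per kilobase of exons in knockout and 0.725 ± 0.321 in wild type, above 14.6% and 15.5% of tested genes. In both genotypes Myh11, a smooth muscle marker, was thus the least abundant member and Rgs5, a pericyte marker, the most abundant. Other members did not follow that split. Smtn, also a smooth muscle gene, stood above 62.8% of tested genes in knockout and 78.2% in wild type. Abcc9, also a pericyte gene, stood above 50.5% and 43.7%. In knockout the order between Rgs5 and Myh11 was Mcam, Ndufa4l2, Cspg4, Smtn, Pdgfrb, Abcc9 and Notch3. Of these, Mcam lay apart from Ndufa4l2, and Pdgfrb from Abcc9, while the ranges of the neighbours from Ndufa4l2 to Pdgfrb overlapped, as did those of Abcc9 and Notch3. In wild type the order was Ndufa4l2, Mcam, Smtn, Cspg4, Pdgfrb, Abcc9 and Notch3. There the ranges of neighbours from Ndufa4l2 to Cspg4 overlapped, as did Abcc9 and Notch3, and Cspg4, Pdgfrb and Abcc9 lay apart from each other.

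**Figure D2:**
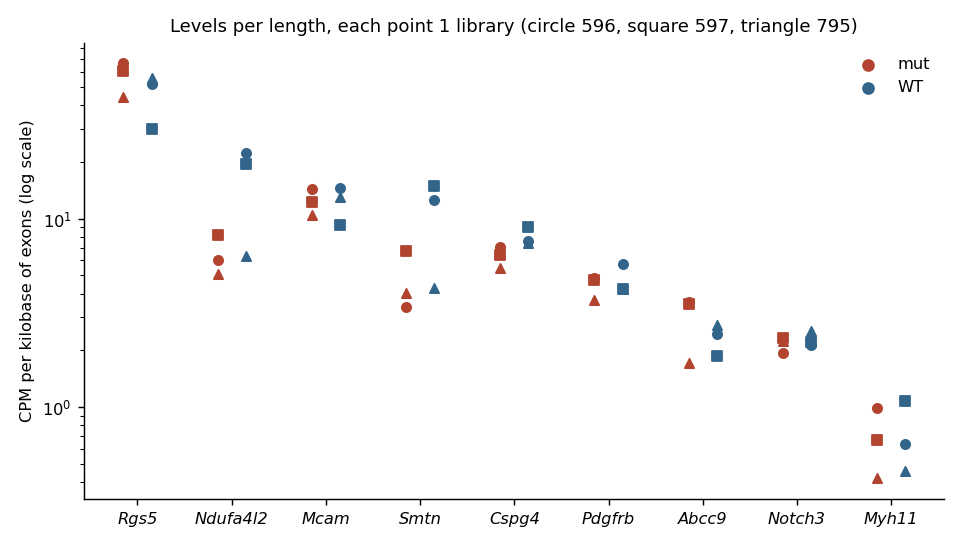
Level of each gene per length, in CPM per kilobase of exons on a log scale, with each library as a point and genes in order of the wild-type mean. Rgs5 lay between 44.3 and 66.5 in knockout and 29.9 and 55.6 in wild type, and Myh11 between 0.42 and 0.99 in knockout and 0.456 and 1.08 in wild type.

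The 2 receptors through which endothelium instructs mural cells were at like levels in the groups. Pdgfrb, which encodes the PDGF-B receptor needed for pericyte recruitment (chromosome 18, 61045150 to 61085061, plus strand, GRCm38), was at 26.4, 25.8 and 20.3 CPM in the 3 knockouts, against 31.6, 23.1 and 23.1 CPM in the 3 wild types. The groups overlapped, with the highest value in WT-596 and the lowest in mut-795. Its log2 fold change was -0.11 (95% interval -0.60 to 0.38, edgeR adjusted p = 0.842). Notch3, which encodes the Notch receptor of arterial smooth muscle and pericytes (chromosome 17, 32120820 to 32166852, minus strand), was at 15.6, 18.9 and 18.2 CPM in the knockouts in the same order, against 17.2, 17.9 and 20.4 CPM in the wild types. All 6 libraries lay within a narrow span, and the log2 fold change was -0.07 (95% interval -0.55 to 0.40, edgeR adjusted p = 0.891). These intervals do not show that the levels were equal.

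Neither of the 2 surface markers passed the test. Cspg4, which encodes the proteoglycan NG2 of pericytes (chromosome 9, 56865033 to 56899870, plus strand), was at 84.5, 76.5 and 65.2 CPM in the 3 knockouts, against 90.9, 108 and 88.1 CPM in the 3 wild types. Every knockout library was below every wild type. The log2 fold change was -0.34 (SE 0.21, edgeR adjusted p = 0.509), and its exact permutation p was 0.1 on both sides together, and 3 libraries against 3 cannot give a smaller one. With the correction for GC content it was 0.03 (SE 0.20), so the direction was not kept. Mcam, which encodes the adhesion molecule CD146 of mural and endothelial cells (chromosome 9, 44134469 to 44142727, plus strand), was at 48.1, 41.2 and 35.1 CPM in the knockouts, against 48.8, 31.1 and 43.7 CPM in the wild types. Its groups covered nearly the same span, and the log2 fold change was 0.01 (95% interval -0.49 to 0.51), with a sign that turned negative under upper-quartile scaling.

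The pericyte genes of contraction control, Rgs5 and Abcc9, were highest in mut-596 and mut-597. Rgs5, which encodes a brake on G-protein signalling and is a classical pericyte marker (chromosome 1, 169655501 to 169695813, plus strand), was at 302 and 276 CPM in these libraries and 201 CPM in mut-795, against 236, 136 and 253 CPM in the 3 wild types. Abcc9, which encodes the regulatory subunit SUR2 of an ATP-sensitive potassium channel (chromosome 6, 142587862 to 142702315, minus strand), was at 30.4, 29.4 and 14.3 CPM in the 3 knockouts, against 20.4, 15.7 and 22.7 CPM in the wild types. In both genes mut-795 lay within or below the wild-type range. The log2 fold changes were 0.32 (SE 0.26, edgeR adjusted p = 0.596) for Rgs5 and 0.33 (SE 0.29, edgeR adjusted p = 0.613) for Abcc9. With the GC correction they were -0.039 and 0.20, so the direction of Rgs5 turned. Against the 3 wild types mut-795 by itself gave -0.04 and -0.44, in a fit that assumes the lone knockout to vary like the wild types, and the part of sex in the difference between the knockout libraries was not tested. Kcnj8, which encodes the pore subunit that pairs with SUR2, was at 12.5, 13.5 and 14.1 CPM in the knockouts, against 14.4, 11.6 and 11.4 CPM in the wild types (log2 fold change 0.10, edgeR adjusted p = 0.860).

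Neither of the 2 smooth muscle contractile genes passed the test, and no test was made of one against the other. Myh11, which encodes smooth muscle myosin heavy chain (chromosome 16, 14194535 to 14291372, minus strand), was at 7.53, 5.10 and 3.19 CPM in the 3 knockouts, against 4.84, 8.21 and 3.46 CPM in the 3 wild types. These rest on 57, 34 and 31 counts in knockout and 51, 87 and 25 counts in wild type, and the groups overlapped. The log2 fold change was -0.09 with a 95% interval of -0.92 to 0.74, which holds differences of either sign. Smtn, which encodes smoothelin, an actin-binding protein of contractile smooth muscle (chromosome 11, 3517523 to 3540612, minus strand), was at 14.8, 29.5 and 17.6 CPM in the knockouts, against 54.6, 64.9 and 18.8 CPM in the wild types. WT-596 and WT-597 stood above all others, and WT-795 lay inside the knockout range. The log2 fold change was -1.17 (SE 0.38, edgeR adjusted p = 0.459).

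Ndufa4l2 had the lowest fold change of the 9. It encodes a mitochondrial protein related to a subunit of the respiratory chain, marks pericytes in single-cell surveys and is induced in hypoxia (chromosome 10, 127514967 to 127517154, plus strand). It was at 6.60, 8.999 and 5.55 CPM in the 3 knockouts, against 24.5, 21.2 and 6.93 CPM in the 3 wild types. As with Smtn, WT-596 and WT-597 were high, and WT-795 lay between the knockouts. The log2 fold change was -1.34 (SE 0.39, edgeR adjusted p = 0.459), and group means were 7.05 ± 1.77 CPM over the 3 knockouts and 17.6 ± 9.35 CPM over the 3 wild types (SD, n = 3 each). The authors' deposited table listed Ndufa4l2 at -1.34 and Smtn at -1.18 and none of the other 7 members. Of its 1643 entries, 1608 carry the log2 fold change of a DESeq2 fit within 1e-04 and an unadjusted p under 0.05 in it, so the table is not a list of genes past an adjusted threshold.

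The call of the 2 lower genes, and the size of their difference, depended on the libraries, the filter and the corrections. With no filter on low counts both passed (edgeR adjusted p = 0.00161 for Ndufa4l2 and 0.00165 for Smtn), as did 0.742% of the genes tested there on the lower side. With a covariate for endothelial markers they were at -0.26 (SE 0.32) and -0.15 (SE 0.31). In that fit 142 of 15712 genes had an unadjusted edgeR p under 0.05, against 1648 without the covariate. Without WT-795 Ndufa4l2 was at -1.73 (edgeR adjusted p = 0.00468) and Smtn at -1.56 (edgeR adjusted p = 0.00707), and 1517 genes passed in place of 1, with 5.73% of the genes tested there passing on the lower side. With the GC correction they were at -0.88 and -0.72 with an edgeR adjusted p of 0.785 each. With WT-795 left out and the GC correction together, chosen after seeing the data, Ndufa4l2 passed at -1.16 (edgeR adjusted p = 0.0429) and Smtn was at -0.99 (edgeR adjusted p = 0.0544), among 131 genes that passed, with 0.587% of those tested passing on the lower side. With mut-795 as the only knockout both were again negative, at -1.65 and -1.38, with an edgeR adjusted p of 0.996 each. The transcripts of Ndufa4l2 and Smtn had 59.5% and 59.8% GC, and those of Notch3 had 59.7%. The GC correction put Notch3 at 0.30 (SE 0.23), and to 0.57 (SE 0.22, edgeR adjusted p = 0.215) with WT-795 left out as well. At the other end, Rgs5 and Abcc9, the members with the highest fold changes, had 41.8% and 46.9%.

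**Figure D3:**
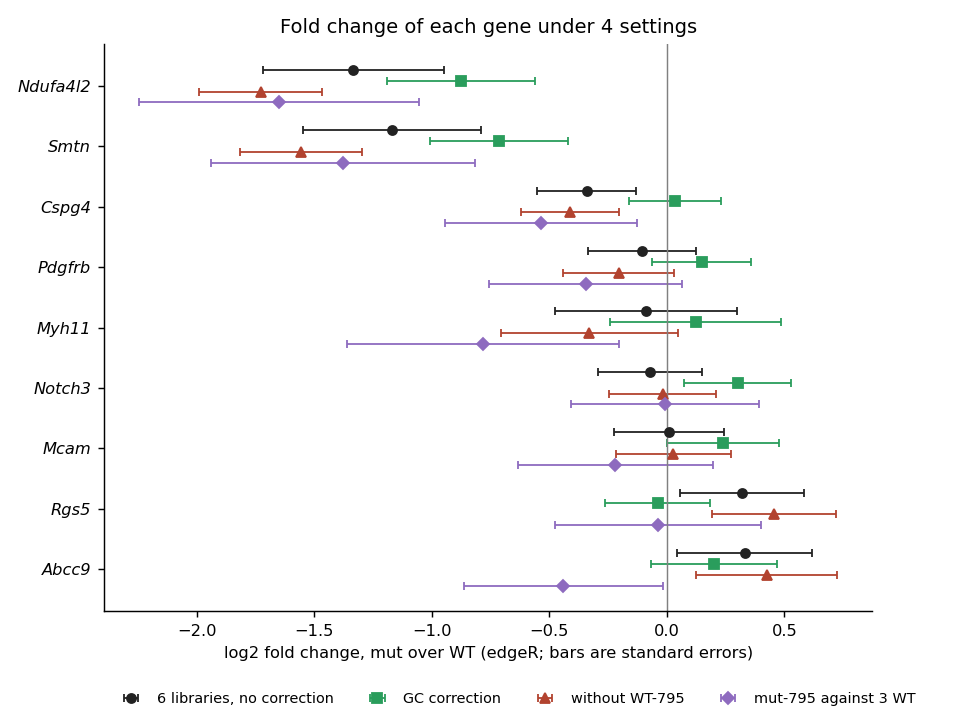
Log2 fold change of each gene, knockout over wild type, with standard errors as bars, under 4 settings that are all 6 libraries without correction, the GC correction, WT-795 left out, and mut-795 alone against the 3 wild types. Ndufa4l2 and Smtn stayed below 0 in each of these 4, from -1.73 to -0.88 and from -1.56 to -0.72, and Rgs5 ranged from -0.04 to 0.46.

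**Figure D4:**
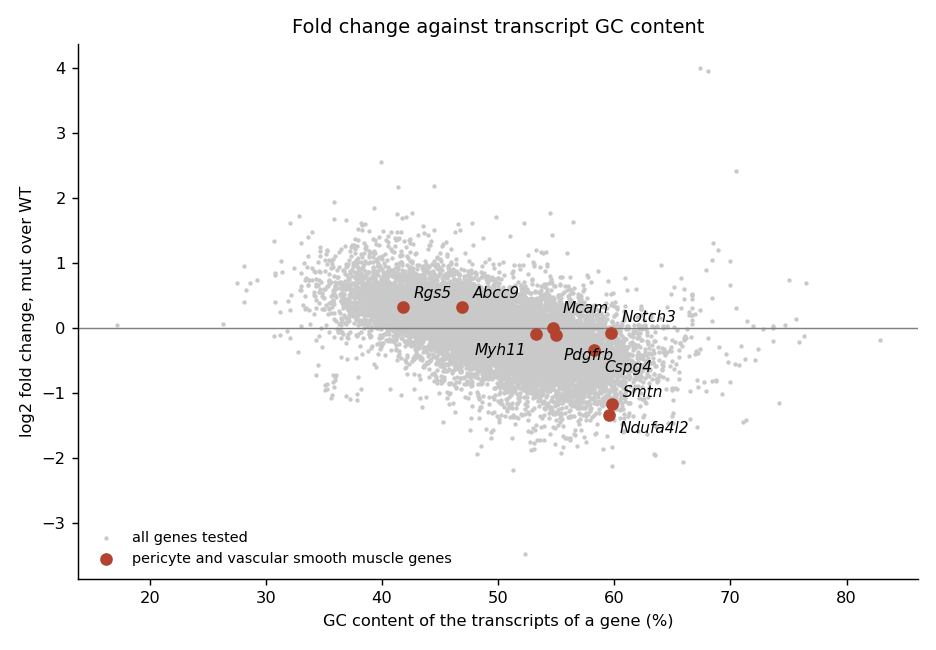
Log2 fold change, knockout over wild type, against the GC content of a gene's transcripts in percent, for 15701 tested genes in grey and the 9 genes in red. The cloud slopes downward (Spearman rho -0.628), and Ndufa4l2, Smtn and Notch3 share a GC content near 60% while their fold changes are -1.34, -1.17 and -0.07.

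Both lower genes overlap a gene on the opposite strand, and since the library chemistry does not mark strand, reads in the shared part cannot be told apart. Ndufa4l2 shares 32 exonic bases with Shmt2, a gene of mitochondrial folate metabolism. Shmt2 had 28, 40 and 52 counts in the 3 knockouts, against 134, 150 and 30 counts in the 3 wild types, with the same low value in WT-795. Smtn shares 714 exonic bases with the noncoding gene Gm11946, which had 37, 52 and 39 counts in the knockouts, against 189, 157 and 35 counts in the wild types. Their log2 fold changes were -1.06 and -1.20, with an edgeR adjusted p of 0.459 each. Shmt2 and Gm11946 are named for their position. The overlapping antisense genes of Notch3, Mcam and Abcc9 had 21, 43 and 2 counts over all libraries, and no other gene was found to share exonic bases with Rgs5, Myh11, Pdgfrb or Cspg4.

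Promoter sequences of 6 of the 9 genes were found in the RefSeq table for GRCm38.p6, and none for Ndufa4l2, Myh11 and Pdgfrb. The 250 bases before the start are shown for 3 genes. Of Ndufa4l2 and Smtn, the members with the lowest fold changes, only Smtn had a promoter entry. Notch3 is shown because its transcripts have a GC content close to that of Smtn, and Rgs5 as the most abundant member. Capitals mark GGGCGG, the core of the GC box, and TGGGAA, the core bound by the Notch effector RBPJ, each on either strand. The Smtn sequence lies at chr11:3539293-3539542 (minus strand), Notch3 at chr17:32166891-32167140 (minus strand) and Rgs5 at chr1:169655251-169655500 (plus strand).
Smtn: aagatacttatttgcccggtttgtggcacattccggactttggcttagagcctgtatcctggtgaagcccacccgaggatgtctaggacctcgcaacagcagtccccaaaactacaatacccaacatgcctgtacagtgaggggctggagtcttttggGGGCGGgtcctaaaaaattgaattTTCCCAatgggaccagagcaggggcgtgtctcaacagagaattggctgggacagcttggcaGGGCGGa
Notch3: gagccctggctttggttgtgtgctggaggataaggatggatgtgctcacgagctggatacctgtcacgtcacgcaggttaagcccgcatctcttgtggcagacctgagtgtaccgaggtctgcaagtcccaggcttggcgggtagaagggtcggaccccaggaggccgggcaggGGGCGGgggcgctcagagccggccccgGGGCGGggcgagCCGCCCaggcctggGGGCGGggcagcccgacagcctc
Rgs5: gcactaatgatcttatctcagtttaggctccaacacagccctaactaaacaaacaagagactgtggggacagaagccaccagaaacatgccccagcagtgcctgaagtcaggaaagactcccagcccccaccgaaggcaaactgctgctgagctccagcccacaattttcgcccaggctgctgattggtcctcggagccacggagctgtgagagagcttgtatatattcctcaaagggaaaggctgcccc
The Smtn window had 53.2% GC with 2 GC boxes and 1 RBPJ core, the Notch3 window 68.8% GC with 4 GC boxes, and the Rgs5 window 53.6% GC with neither motif, beside a median of 52.4% GC over all promoters. The Smtn start used by RefSeq lies inside the gene as GENCODE bounds it, so another start exists that these bases do not cover. The Notch3 start lies outside the gene as GENCODE bounds it, and the bases after it were not found in a GENCODE transcript, so that start is uncertain. Over 32536 promoters, 33.0% held a GC box and 21.6% an RBPJ core. The CArG box, the site of the serum response factor at smooth muscle genes, was in 1.48% of them and in none of the 6 windows. A missing motif says only that these letters are not in the window.

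Among the ligand genes looked at here, Pdgfb, Pdgfa, Jag1 and Angpt1 had groups that did not overlap. None of these passed by edgeR with all 6 libraries. Pdgfb, the endothelial ligand of the Pdgfrb product, was at 2.24, 1.95 and 3.91 CPM in the 3 knockouts, against 6.93, 8.11 and 4.16 CPM in the 3 wild types. The knockouts were lower, with mut-795 just below WT-795, at a log2 fold change of -1.23 (SE 0.37, edgeR adjusted p = 0.459). Of the other 4 PDGF genes, Pdgfa was at -0.34, also without overlap, and Pdgfc, Pdgfd and Pdgfra were above 0. Jag1, the ligand that keeps NOTCH3 active in smooth muscle, was at 36.7, 32.8 and 33.5 CPM in the knockouts, against 24.4, 18.2 and 25.5 CPM in the wild types, each knockout above each wild type, at 0.60 (SE 0.22, edgeR adjusted p = 0.459). Non-overlap was met by 6.22% of all genes tested on the lower side and by 5.66% on the higher side. With the GC correction Pdgfb was at -0.78, Pdgfa at -0.0018, Pdgfc at -0.0016 and Jag1 at 0.55. Without WT-795, where 1517 of 16702 genes passed, Pdgfb (-1.46, edgeR adjusted p = 0.0265) and Angpt1 (0.91, edgeR adjusted p = 0.0288) passed. Jag1 did not pass there (0.67, edgeR adjusted p = 0.0728).

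Of 14 measured Notch genes, 7 were above 0 and 7 below, with a median log2 fold change of -0.01 and no call. Heyl and Hey2, targets of Notch in mural cells, were at -0.55 and 1.08, and Rbpj at 0.33. Of 12 genes of mural recruitment, 6 were above 0 and 6 below, with a median of 0.04 and no call. Angpt1, the mural ligand of the endothelial TIE2 receptor, was at 28.3, 26.7 and 23.9 CPM in the knockouts, against 14.2, 13.4 and 23.3 CPM in the wild types, at 0.64 (SE 0.25, edgeR adjusted p = 0.459) and at 0.20 with the GC correction. Every knockout exceeded every wild type, by a small margin over WT-795. Eng, a TGF-beta coreceptor of endothelium, was at -0.54 without overlap, and S1pr3, a receptor for sphingosine-1-phosphate, at -0.73. With the GC correction Eng was at -0.16 and S1pr3 at -0.61. Of 10 genes for the serum response factor and its cofactors, 5 were below 0 with a median of -0.09. Of these 10, 3 were lower in knockout without overlap, beside 6.22% of all genes tested, and 0 were higher without overlap. Srf itself was at 1.06, 2.70 and 2.67 CPM in the knockouts, against 5.604, 6.60 and 4.02 CPM in the wild types, at -1.33 (SE 0.40, edgeR adjusted p = 0.459). With the GC correction Srf was at -0.90. Without WT-795 it passed at -1.52 (edgeR adjusted p = 0.0342), where 5.73% of the genes tested passed on the lower side. The coactivator gene Myocd was at 0.41 (SE 0.56) and turned to -1.26 with mut-795 as the only knockout.

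Other pericyte markers gave no call. Of 19 in the list, 16 were tested, 9 were below 0 and 0 passed, with 1 lower and 0 higher at an unadjusted p under 0.05 and a median of -0.12. Tbx2, a T-box factor gene, was at -0.78, Tbx18, another T-box factor of mural cells, at 0.48 and Gucy1a1, a subunit of the nitric oxide receptor, at 0.45. The small mitochondrial genes Higd1b and Cox4i2, used with Ndufa4l2 as pericyte markers, were at -0.33 and -0.31. Cox4i2 had 2.38, 5.40 and 4.01 CPM in the knockouts, against 5.79, 5.94 and 2.63 CPM in the wild types, which overlapped, and its sign changed with the GC correction. The 3 markers not tested, Vtn, Atp13a5 and Plxdc1, had at most 24 counts in any library. Summed over the tested markers the list lay between 215 and 261 CPM in knockout and between 213 and 255 CPM in wild type.

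In the list of other smooth muscle genes, 17 of 26 tested members were below 0, with a median of -0.30, or -0.12 with the GC correction. Of these 26, 0 passed. At an unadjusted p under 0.05, 6 were lower and 0 higher, where 7.12% of all genes tested were lower and 3.37% higher. At the same mark 7 of 20 skeletal muscle markers and 5 of 20 endothelial markers were lower. Acta2, the smooth muscle actin gene, was at 47.1, 95.1 and 60.3 CPM in the 3 knockouts, against 138, 163 and 61.5 CPM in the 3 wild types. It had the order seen for Smtn, with 2 high wild types and WT-795 among the knockouts, at -0.84 (SE 0.33, edgeR adjusted p = 0.459). Tagln, which encodes the actin-binding protein SM22, was at 66.8, 65.8 and 50.1 CPM in the knockouts, against 56.7, 60.7 and 44.2 CPM in the wild types, at 0.18 (SE 0.22). Cnn1, the calponin gene, was at -0.19 (SE 0.53). Des, the desmin gene of intermediate filaments, was at -1.42 and Tpm2, a tropomyosin gene, at -1.35, and skeletal muscle makes both. Without WT-795, 7 of the 26 passed by edgeR, all lower in knockout, among them Acta2 (-1.17, edgeR adjusted p = 0.0170) and Des (-1.83, edgeR adjusted p = 0.00804), and 1 of the 16 other pericyte markers did, Tbx2. In that setting 9 of 20 skeletal muscle markers and 3 of 20 endothelial markers also passed on the lower side, beside the 5.73% of all genes tested.

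Levels of markers of other cell types differed between the libraries as well. All 20 skeletal muscle markers were tested, 18 were below 0, and their summed level lay between 3324 and 6575 CPM in knockout and between 4295 and 13482 CPM in wild type, so skeletal muscle RNA was in every library. WT-597 held the highest sum and mut-596 the lowest. With the mean log2 CPM of the muscle markers as a covariate, Smtn was at -0.69 and Ndufa4l2 at -1.05. All 20 endothelial markers were tested, 14 were below 0, and the median was -0.31, or -0.04 with the GC correction. Their sum lay between 323 and 397 CPM in knockout and between 371 and 426 CPM in wild type. Plvap, a gene of fenestrated capillaries, was at 11.5, 18.1 and 12.6 CPM in the knockouts, against 42.6, 39.2 and 11.6 CPM in the wild types, again with WT-596 and WT-597 high and WT-795 inside the knockout range. The pan-endothelial genes Pecam1 and Cdh5 were at -0.07 and 0.20. With the mean log2 CPM of the endothelial markers as a covariate, Ndufa4l2 and Smtn were at the values given above, the nearest to 0 among the alternatives. The median of these markers relative to the wild-type mean was 0.22 and 0.10 in WT-596 and WT-597 and below 0 in the other 4 libraries. The part of endothelial and muscle content in the difference was not tested.

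**Figure D5:**
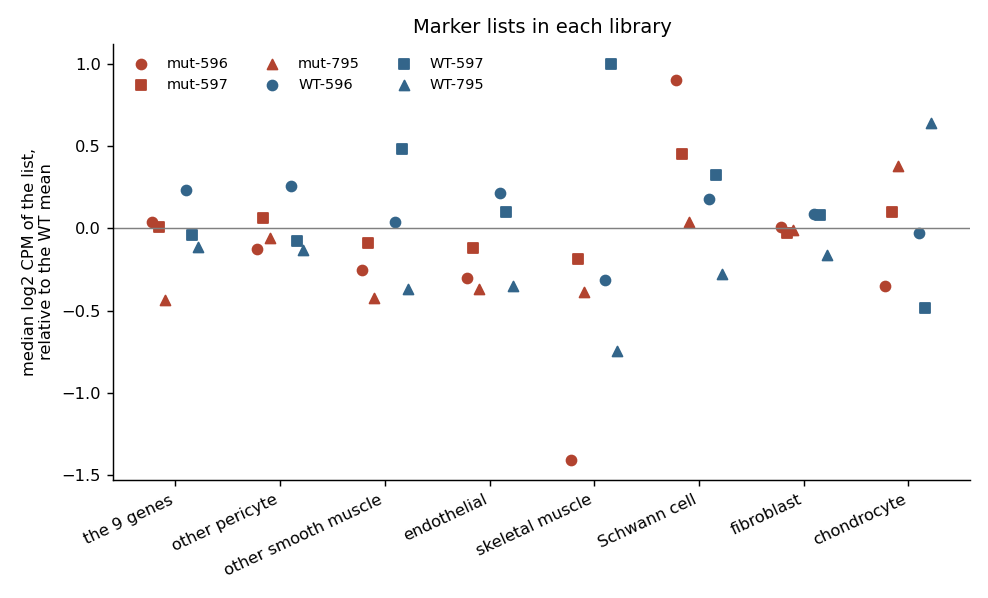
Median log2 CPM of each marker list relative to its wild-type mean, with each library as a point, for the 9 genes and 7 other lists. In the endothelial list WT-795 at -0.35 lay among the knockouts, which spanned -0.37 to -0.12, and in the skeletal muscle list mut-596 at -1.41 was the lowest and WT-597 the highest.

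The other lists gave no call by edgeR. Of 8 tested Schwann cell markers 6 were above 0, with a summed level of 219 to 336 CPM in knockout and 226 to 235 CPM in wild type, and a median log2 fold change of 0.54. The myelin gene Mbp was at 1.77, and Sox10, a factor that defines the lineage, was at -1.16 (SE 0.67). Fibroblast markers had a median of 0.05 and chondrocyte markers 0.20, and all 10 and all 11 genes of these lists were tested, so markers of both cell types were present. Of 14 hypoxia response genes, the class to which Ndufa4l2 belongs, 7 were below 0 with a median of 0.02, Egln3 at -0.81 and Kdm3a at 0.81. The sum of the 9 genes was 536, 511 and 381 CPM in the 3 knockouts, against 529, 426 and 480 CPM in the 3 wild types, of which Rgs5 made up the largest share. The library mut-795 was the lowest of all 6 for Ndufa4l2, Myh11, Pdgfrb, Cspg4 and Abcc9, and it also had the lowest endothelial sum.

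Among the genes with the pattern closest to Myh11 over the 6 libraries were Sorcs2 and Foxj2, each with a Pearson correlation of log2 CPM of 0.986. For Rgs5 they were Vipas39, Mfap3 and Plekha8 at 0.985, 0.984 and 0.982. Among 11651 genes compared, 18 exceeded 0.95 with Myh11 and 44 with Rgs5, and the libraries share depth and GC differences, so these are descriptions.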

How the data were processed

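Perichondrium RNA was sequenced in 3 knockout and 3 wild-type libraries. Per the labels' protocols, RNA was isolated on micro-scale columns and libraries were made with Smart-seq V4 and Nextera XT, which amplify cDNA and do not mark strand. The authors' matrix gives raw counts of reads for each gene. Per the submitters' processing notes GRCm38.p6 and DESeq2 were used. Strand and multi-match settings: not given in the sources used here. A table the authors deposited holds log2 fold changes of knockout over wild type, with the log base judged from the values.

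The members and lists were chosen with earlier results of these data known. Members, marker genes and partner lists are named by a rule that takes all 9 members, Fbn1, a fixed set of marker genes and up to 4 genes with the smallest p in each list. Higd1b, Cox4i2, Sox10, Myocd, Pdgfc, Shmt2 and Gm11946 fall outside it and were chosen after their values were seen. Some genes that the rule names are not reported here. Groups and columns came from the titles. edgeR 4.0.16 (glmQLFit and glmQLFTest, R 4.3.3) was run on counts with TMM scaling and filterByExpr, without covariates, two-sided, with Benjamini-Hochberg adjustment over 15712 genes and a threshold of 0.05. It was tested on simulated data. CPM is TMM-scaled, log2 CPM used a prior count of 2, and standard errors are the log2 fold change over the square root of F. Symbols, exonic length and GC content came from GENCODE M21. The GC correction gave edgeR per-library loess offsets of log2 CPM on GC content. Alternatives used DESeq2 1.42.0 and limma 3.58.1. Without molecular identifiers, reads from 1 molecule may be counted more than once.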

Additional observations from a re-analysis of the deposited data

How the results depend on the processing

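Of 20 alternatives, 0 brought any of Rgs5, Abcc9, Pdgfrb, Cspg4, Mcam, Notch3 or Myh11 past the threshold, and Ndufa4l2 (-1.73 to -0.26) and Smtn (-1.56 to -0.15) stayed below 0 in all. Among the 9 genes 0 passed, 2 with no filter (Ndufa4l2 and Smtn, edgeR adjusted p = 0.00161 and 0.00165), 0 to 2 with 1 library left out, the 2 without WT-795, and 1 without WT-795 with the GC correction. Over all genes the count of 1 became 270 with no filter, 20 by DESeq2, 2 with the endothelial covariate, 4 with the replicate block and GC correction, 0 in the libraries without Xist (451 genes at an unadjusted p under 0.05) and 131 without WT-795 with the GC correction, and 1 to 1517 with 1 library left out (12 without mut-795). The causes were not tested.

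Signs turned as follows. With the GC correction Cspg4 was at 0.034, Myh11 at 0.12, Notch3 at 0.30, Pdgfrb at 0.15 and Rgs5 at -0.039, and with the replicate block added they were at 0.024, 0.13, 0.32, 0.15 and -0.036. Without WT-795 with the GC correction Cspg4 was at 0.14, Notch3 at 0.57, Pdgfrb at 0.18 and Rgs5 at -0.077. In the libraries without Xist, Abcc9 was at -0.44, Mcam at -0.22 and Rgs5 at -0.037. Myh11 was at 0.46 and Pdgfrb at 0.087 with the endothelial covariate, and Myh11 at 0.13 and Mcam at -0.16 with the muscle covariate. Mcam was at -0.026 with upper-quartile scaling, -0.017 with no filter, -0.0040 with the stricter filter, -0.0040 by DESeq2 and -0.078 with sample weights, where Notch3 was at 0.018. With 1 library left out, Mcam ranged from -0.18 to 0.15, Myh11 from -0.46 to 0.30 and Pdgfrb from -0.21 to 0.055.

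The labels do not say what the 3 numbers in the titles mean. With 3 libraries per group, the values below cannot decide whether the numbers pair the libraries. Deviations from the group means correlated at -0.177, 0.244 and -0.202 within the same number, 1 of 3 knockouts correlated best with its own number, and the replicate block left 1 gene past the threshold and 0 of the 9, with Ndufa4l2 at -1.18 and Smtn at -1.05. Counts of Myh11, the least abundant member, lay between 25 and 87 per library, and what depth adds to its error was not tested.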
